A study of Mus musculus with 6 samples.

Results

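The 9 genes Foxa1, Foxa2, Foxa3, Foxc1, Foxc2, Foxd1, Foxd2, Foxd3 and Foxe1 encode forkhead transcription factors that act in the embryo. They were chosen by symbol and are 9 of 16819 symbols in the table of the main comparison, which holds 18376 RefSeq entries. Each had a single RefSeq entry. Messenger RNA was sequenced from cells of the mouse small-intestinal crypt, sorted on the green fluorescence of Lgr5-GFP, a reporter of a stem cell receptor gene. RingKO cells (2 libraries) came from Lgr5Gfp-CreERT2 Ring1a-/- Ring1bf/f animals and WT cells (2 libraries) from Lgr5Gfp-CreERT2 animals. Bcat_RingKO cells (1 library) came from Lgr5Gfp-CreERT2-Ctnnb1-ex3 Ring1a-/- Ring1bf/f animals and Bcat cells (1 library) from Lgr5Gfp-CreERT2-Ctnnb1-ex3 animals. All animals were of C57BL/6 background, carried the tamoxifen-activated Cre at Lgr5, and were given 3 tamoxifen injections before the cells were taken at day 6. The Cre acts in Lgr5-expressing cells, so Ring1b can be deleted there, whereas the Ring1a null allele is present in every cell of the RingKO and Bcat_RingKO animals from the start. Age is not given in the sources used here, nor whether the libraries of a group came from separate animals, and p-values therefore cover only variation among these libraries, possibly technical.

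Forkhead proteins bind DNA through a winged-helix domain. The Foxa proteins open closed chromatin in the endoderm, the germ layer of the gut lining, and remain active in the adult intestine. Foxc1 and Foxc2 act in mesoderm, blood vessels and bone, Foxd1 in the stroma of the kidney and in the retina, Foxd3 in pluripotent cells and the neural crest, and Foxe1 in the thyroid. Ring1 (Ring1a) and Rnf2 (Ring1b) are the catalytic subunits of PRC1 (Polycomb repressive complex 1), an enzyme complex that marks histones at silent developmental genes, many of them at promoters rich in CpG dinucleotides.

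Promoter sequences are shown for 3 members that were higher in RingKO (Foxd1, Foxd3, Foxc1) and for 2 that did not pass the test (Foxa1, Foxa3), because CpG density is the promoter feature tied to Polycomb targeting. Each is the RefSeq window (build GRCm38.p6) of 250 bases before to 50 after a gene start, 5′ to 3′ on the strand of the gene, with CpG dinucleotides in capitals. The windows lie at chr13:98353995-98354294 (plus strand) for Foxd1, chr4:99656049-99656348 (plus) for Foxd3, chr13:31806396-31806695 (plus) for Foxc1, chr12:57546062-57546361 (minus) for Foxa1 and chr7:19023490-19023789 (minus) for Foxa3.
Foxd1: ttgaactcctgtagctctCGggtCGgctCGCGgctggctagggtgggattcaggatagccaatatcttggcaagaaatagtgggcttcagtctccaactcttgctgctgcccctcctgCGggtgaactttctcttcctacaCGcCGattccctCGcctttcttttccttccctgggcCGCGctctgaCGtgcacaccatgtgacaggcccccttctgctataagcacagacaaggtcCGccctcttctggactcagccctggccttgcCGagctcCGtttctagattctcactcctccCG
Foxd3: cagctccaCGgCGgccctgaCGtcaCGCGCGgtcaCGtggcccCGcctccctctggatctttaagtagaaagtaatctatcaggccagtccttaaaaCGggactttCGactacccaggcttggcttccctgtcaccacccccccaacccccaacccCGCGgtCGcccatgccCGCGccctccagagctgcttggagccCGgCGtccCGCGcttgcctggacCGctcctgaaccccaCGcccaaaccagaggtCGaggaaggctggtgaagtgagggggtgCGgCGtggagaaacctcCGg
Foxc1: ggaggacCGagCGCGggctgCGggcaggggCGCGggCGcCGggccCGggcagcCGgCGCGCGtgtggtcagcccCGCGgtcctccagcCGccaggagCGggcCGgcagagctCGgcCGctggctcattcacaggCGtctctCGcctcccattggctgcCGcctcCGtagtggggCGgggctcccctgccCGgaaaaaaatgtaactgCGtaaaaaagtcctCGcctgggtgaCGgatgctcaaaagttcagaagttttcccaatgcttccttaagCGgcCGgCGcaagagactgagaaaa
Foxa1: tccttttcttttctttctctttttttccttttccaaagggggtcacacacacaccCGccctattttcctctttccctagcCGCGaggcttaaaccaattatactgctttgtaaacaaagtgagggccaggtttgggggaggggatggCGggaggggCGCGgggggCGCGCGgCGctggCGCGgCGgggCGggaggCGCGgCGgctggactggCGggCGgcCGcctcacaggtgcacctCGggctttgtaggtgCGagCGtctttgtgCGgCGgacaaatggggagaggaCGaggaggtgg
Foxa3: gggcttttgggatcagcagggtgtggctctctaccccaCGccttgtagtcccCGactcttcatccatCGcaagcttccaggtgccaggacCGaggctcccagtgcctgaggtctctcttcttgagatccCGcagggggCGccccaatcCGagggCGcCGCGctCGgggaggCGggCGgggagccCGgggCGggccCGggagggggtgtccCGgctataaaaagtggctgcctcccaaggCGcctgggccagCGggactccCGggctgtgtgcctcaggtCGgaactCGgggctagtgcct

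The CpG density of the Foxa promoters overlapped that of the other members. Among the 9 members, 7 had a window, and Foxa2 had 3 of them. Foxc1 had 32 CpG in its window, Foxd2 26, Foxd3 25 and Foxd1 15, while Foxa1 had 26, Foxa3 22 and the Foxa2 windows 13, 23 and 12. All of these lie above the median of 7 CpG over 32851 windows. Over the 12182 symbols with a window and an entry in the main table the median was 20. Foxd1 and the Foxa2 windows with 13 and 12 lie below that. In rank over the 32851 windows the members stood at percentiles 66.2 to 91.0 for Foxc1 and the Foxd genes, and 61.3 to 83.8 for the Foxa genes. The ranges overlap. The ratio of observed to expected CpG was 0.943 in Foxc1 and 0.929 in Foxa1, close to each other, and 0.624 in Foxd1 and 0.619 in Foxa3.

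Over all genes with a window and an entry in the main table, windows of genes called higher in RingKO (401 symbols) had a median of 24 CpG, against 20 for genes not called (11534 symbols). Among genes without a read in WT the medians were 23 CpG for the 34 called higher and 10 for the 447 not called. Foxd3, with 25, lies above the median of the first of these sets, and Foxd1, with 15, lies between both medians. These are descriptions of sequence and no test was made of them.

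**Figure D1:**
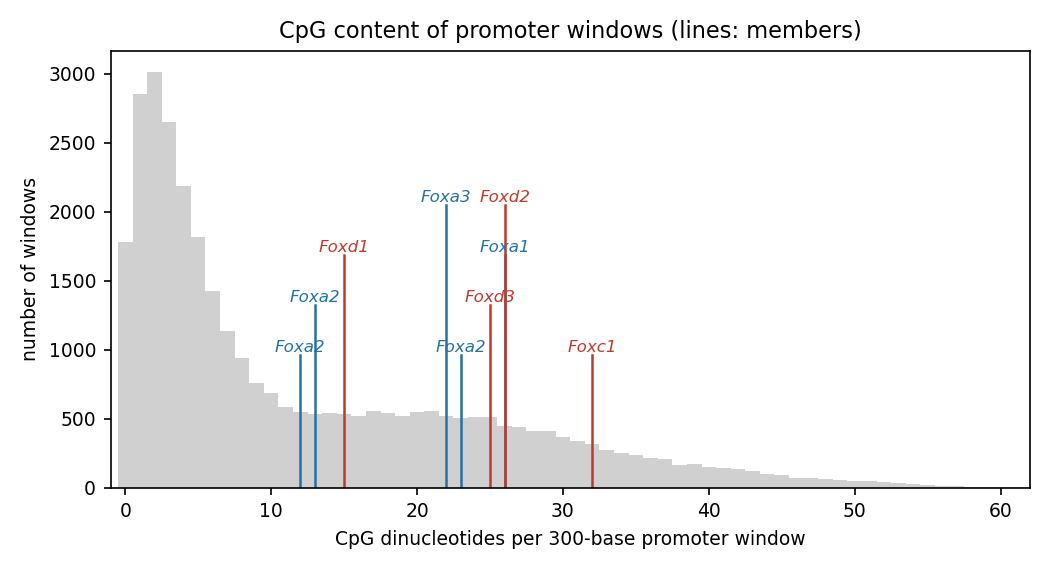
CpG dinucleotides per 300-base RefSeq promoter window (x axis) against the number of windows (y axis) for all 32851 windows (grey bars). Labelled lines mark the windows of the 7 members that have one, red for Foxc and Foxd genes and blue for Foxa genes, and their height carries no value. The Foxa windows (12 to 26 CpG) overlap in range with those of Foxc1 and the Foxd genes (15 to 32 CpG).

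A forkhead consensus core, TGTTTAC, searched on both strands, was present in 1 of the 9 member windows, that of Foxa1, where it reads gtaaaca on the printed strand. It occurs in 3.65% of all windows. The GC-box GGGCGG was present in 8 of the 9 member windows, Foxd3 being the exception, against 35.7% of all windows. CCAAT was present in 5 of 9 (37.4% of all windows) and TATAAA in 2 of 9 (13.6%), those of Foxa3 and of 1 Foxa2 start. A match is not evidence of binding.

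Before the members' own values, the libraries were examined. Reads assigned to RefSeq entries numbered 2911422 and 2651201 in RingKO, 6753789 and 6294932 in WT, 4470853 in Bcat_RingKO and 922153 in Bcat, so a gene with no reads is least informative in Bcat. Within a group, the letters A and B name libraries in an arbitrary order. Ring1 had 9 and 11 reads in RingKO and 484 and 363 in WT (adjusted p = 1.26e-26 in the authors' deposited table), and 43 reads in Bcat_RingKO and 24 in Bcat, a normalized ratio of 0.358 (95% counting interval 0.213 to 0.617). Rnf2 had 142 and 103 reads in RingKO and 220 and 246 in WT (adjusted p = 1), but the deleted stretch is not given and reads over a whole transcript do not check it. Ctnnb1 had a ratio of 1.09 in the Bcat pair, which does not check its allele either. Lgr5 was detected in every library, with 461 and 222 reads in RingKO, 942 and 922 in WT, 1505 in Bcat_RingKO and 146 in Bcat, and it did not pass the test in RingKO (log2 fold change -0.36, adjusted p = 1). The RingKO libraries also differed more from each other than the WT libraries did: the log2 ratio between libraries had an SD of 0.446 in RingKO and 0.245 in WT (7939 entries averaging 50 or more). The RingKO libraries hold fewer reads, so counting error adds more to their SD, and its share was not tested.

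Throughout, a normalized read count is the number of reads divided by the authors' size factor of the library, and a gene is said to have risen or fallen where the authors' own adjusted p was under 0.05. Values written with ± are edgeR's log2 fold changes of RingKO over WT with their SE (2 libraries each). Genes without WT reads are set against 3 reads summed over both WT libraries (1.01 normalized reads), a floor that gives a bound on the fold but not a lower confidence limit. Intervals and floors cover counting error only.

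The Foxc and Foxd genes rose in RingKO and the Foxa genes did not. Of the 9 members 5 rose, all of them Foxc or Foxd genes, and 0 fell, against 3.14% of all 18376 entries that rose and 1.76% that fell. On the recovered reads edgeR's quasi-likelihood test (Benjamini-Hochberg) called 5 members higher and 0 lower, with 9.91% and 2.95% of its entries called. DESeq2 called 6 and 0, with 6.88% and 1.89%. Foxc2, Foxd1 and Foxd3 entered edgeR's test through their RingKO reads alone, and Foxe1 did not pass its filter on low counts. The edgeR count is therefore not separate support. In 6 members, the 5 that rose and Foxe1, both RingKO libraries lay above both WT libraries, as they did in 18% of all entries. Of these 6, Foxc2, Foxd1, Foxd3 and Foxe1 had no read in either WT library, and of the 880 entries without WT reads 6.25% rose. In sorted bulk RNA a higher level may stand for more RNA per cell or more cells with the RNA, just as fewer cells of a type and less RNA per cell cannot be told apart.

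Foxd1 had the highest normalized read count of the 6 in RingKO library A. It had 93 and 75 reads in the RingKO libraries (normalized 132 and 108), against none in either WT library. Every RingKO library was high and the groups did not overlap. The gene was at least 119-fold higher (authors' adjusted p = 8.08e-27).

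Foxd3, a factor of pluripotent cells and neural crest, had 42 and 39 reads in RingKO (normalized 59.7 and 56.0) and none in WT. The RingKO libraries were close to each other, and the gene was at least 57.5-fold higher (authors' adjusted p = 6.80e-13).

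Foxd2, a factor of mesoderm and the developing kidney, was the member of these 6 with the most reads in WT. It had 51 and 43 reads in RingKO (normalized 72.5 and 61.7), against 17 and 28 in WT (normalized 10.9 and 19.7). The WT libraries both held reads, and the lower RingKO value was above the higher WT value. The ratio was 4.45 (95% counting interval 3.09 to 6.50) and the log2 fold change 2.32 ± 0.34 (authors' adjusted p = 0.000527), which was the smallest change among the 5 members that rose.

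Foxc1, which acts in the eye, skull and heart, had 66 and 89 reads in RingKO (normalized 93.8 and 128), against 6 and 1 in WT (normalized 3.83 and 0.705). The groups lay far apart, with a ratio of 47.2 (22.4 to 119) and a log2 fold change of 5.68 ± 0.49 (authors' adjusted p = 6.42e-16). The size rests on few WT reads: by edgeR it was 7.23 without WT library A and 4.97 without WT library B. Its paralogue Foxc2, a factor of lymphatic and vascular development, was much lower in reads. It had 16 reads in each RingKO library (normalized 22.7 and 23.0) and none in WT, at least 22.7-fold higher (authors' adjusted p = 0.000156).

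Foxe1, a thyroid factor, had 5 and 9 reads in RingKO (normalized 7.10 and 12.9) and none in WT. Both RingKO libraries were above WT, but the authors' test did not call it (adjusted p = 0.0889). The observed level in RingKO was at least 9.94-fold higher, against the WT floor. Other tests on the recovered reads called it higher, with an adjusted p of 0.0152 by DESeq2 and 0.0144 by edgeR's quasi-likelihood test without a filter on low counts, which called 5.77% of entries higher (Benjamini-Hochberg in both).

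The Foxa genes were present at similar levels in both genotypes. Foxa1 had 219 reads in each RingKO library (normalized 311 and 314), against 504 and 540 in WT (normalized 322 and 381). Both RingKO values were below both WT values, as in 33.6% of all entries, and the gap between 314 and 322 was small. The authors' deposited log2 fold change was -0.16 (adjusted p = 1), and edgeR's, which scales the libraries by trimmed means (TMM), was 0.018 ± 0.15.

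Foxa2 had 192 and 138 reads in RingKO (normalized 273 and 198), against 346 and 294 in WT (normalized 221 and 207). RingKO library B lay below both WT libraries and library A above them, so the groups overlapped. The deposited log2 fold change was 0.14 (adjusted p = 1). With RingKO library B left out, which leaves 1 RingKO library, edgeR gave 0.50.

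Foxa3, the third endodermal member, had 193 and 253 reads in RingKO (normalized 274 and 363), against 578 and 509 in WT (normalized 369 and 359). The groups overlapped, with RingKO library B between the WT libraries. The deposited log2 fold change was -0.19 (adjusted p = 1), and edgeR gave a value of -0.0044 ± 0.18. For the 3 Foxa genes together, 0 passed the authors' test, 0 reached an unadjusted p under 0.05, and 0 were called by edgeR or by DESeq2.

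These log2 values carry a shift between the scalings: for the 10957 entries averaging 10 or more, the median deposited log2 fold change was -0.18, whereas edgeR's own log2 fold changes had a median of -0.0067 over the entries it tested. Relative to that median the Foxa genes, at a median of -0.16 (range -0.19 to 0.14), stood close to it. For the 6 Foxc, Foxd and Foxe genes the deposited values had a median of 5.21 (range 2.10 to 7.50), or 4.88 with those without WT reads at their bound. Of the 6, 5 passed edgeR's filter on low counts, Foxc2, Foxd1 and Foxd3 only through their RingKO reads.

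**Figure D2:**
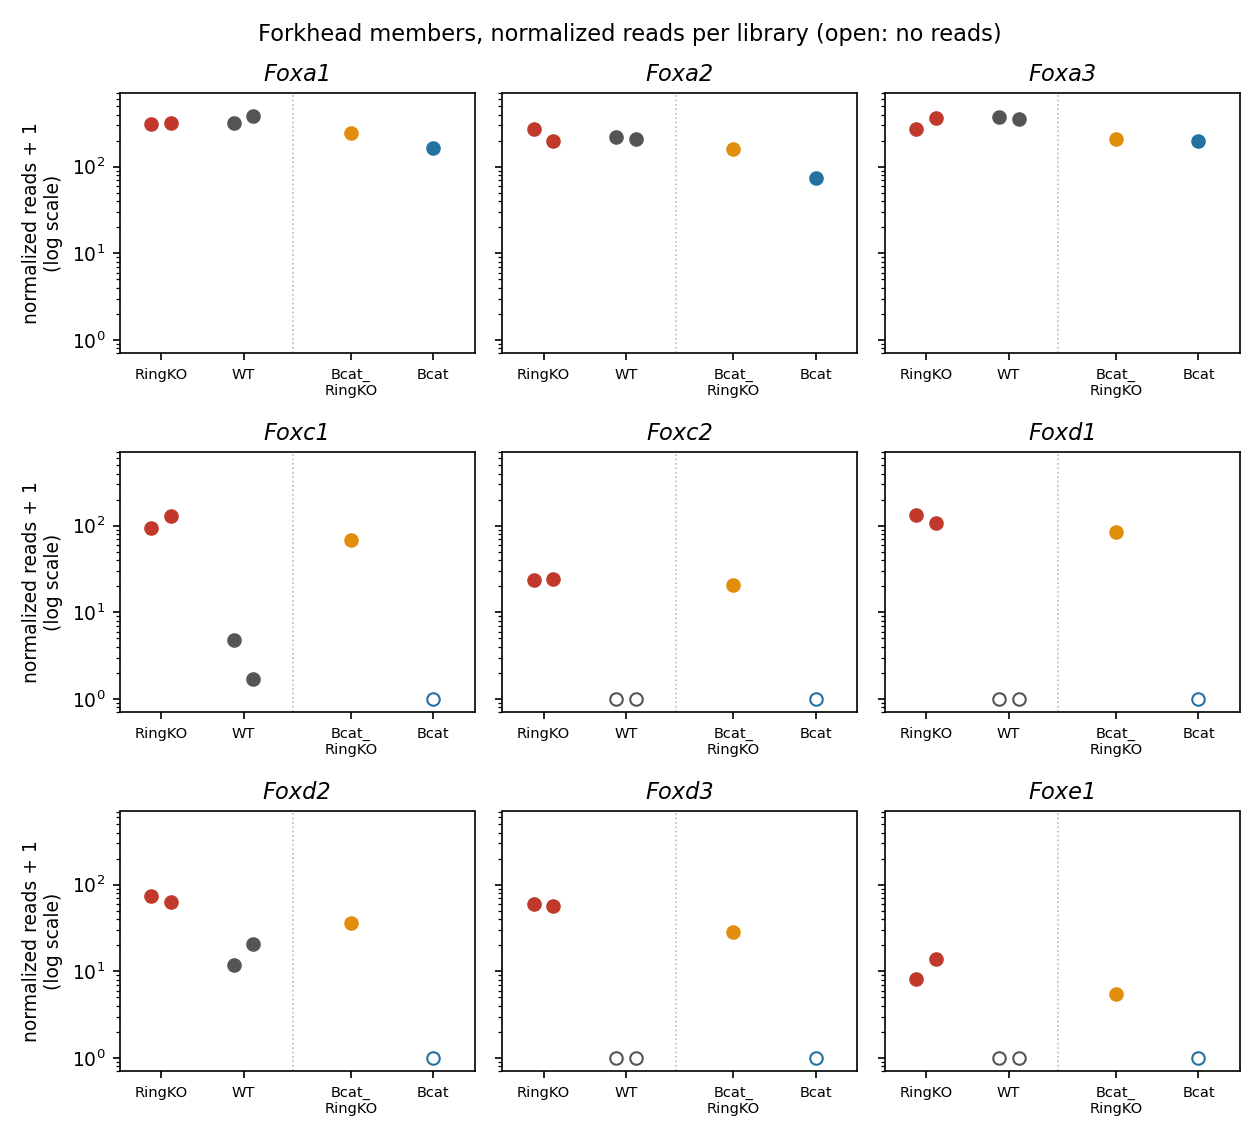
Normalized reads of each member in each library, on a log scale of normalized reads plus 1, with RingKO left of WT and Bcat_RingKO left of Bcat, and 1 point per library (open where a library had no reads). The 6 Foxc, Foxd and Foxe genes lie higher in RingKO than in WT and have no reads in Bcat, while Foxa1, Foxa2 and Foxa3 lie between 198 and 381 in RingKO and WT.

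Summed over the members, normalized reads of the 6 Foxc, Foxd and Foxe genes were 388 and 389 in RingKO and 14.7 and 20.4 in WT. Those of the 3 Foxa genes were 858 and 876 in RingKO and 913 and 946 in WT. As a share of the normalized reads of all 34 forkhead symbols in the table, the 6 genes took 9.07% and 8.85% in RingKO and 0.326% and 0.433% in WT. The Foxa share was 20.1% and 19.9% in RingKO and 20.2% and 20.1% in WT.

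Per length, the genes that rose stayed below the Foxa genes. Levels in normalized reads per kilobase of annotated transcript, were highest for Foxa3 in both genotypes (135 and 178 in RingKO, 181 and 176 in WT). Foxa2 (128 and 93.1 in RingKO, 104 and 97.4 in WT) and Foxa1 (97.5 and 98.6 in RingKO, 101 and 119 in WT) came next. Foxa1 and Foxa2 overlapped in both genotypes. Among the others in RingKO, Foxd2 stood at 28.0 and 23.8, Foxd3 at 25.7 and 24.1, Foxd1 at 26.1 and 21.3, and Foxc1 at 16.0 and 21.9 normalized reads per kilobase. Neighbours in this order overlapped, as did Foxd1 and Foxc1, whereas Foxc2 (8.34 and 8.43) and Foxe1 (2.53 and 4.61) were each separated from the gene above. The Foxd genes thereby reached percentiles 60.2 to 61.5 of levels per kilobase over all entries in RingKO, and the Foxa genes percentiles 81.1 to 87.2. In WT, Foxd2 was at 4.19 and 7.61 normalized reads per kilobase (percentile 45.8) and Foxc1 at 0.656 and 0.121 (percentile 18.6). The transcript lengths used are those of the annotation, from 2037 bases for Foxa3 to 5844 for Foxc1, and the length over which the authors counted is not given.

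The second pair of libraries carried the Ctnnb1-ex3 allele, named for the beta-catenin gene of the Wnt pathway. There is 1 library per group, so no test was made, and the authors scaled this table on its own. "Past 2-fold" means that the ratio, or the bound for a gene without Bcat reads, was over 2 and the 95% counting interval excluded 1. All 6 Foxc, Foxd and Foxe genes had no reads in Bcat and had reads in Bcat_RingKO. Of these 5 were past 2-fold, and Foxa2 made it 6 of 9 members, against 17% of all 17076 entries (7.16% of the 4564 entries without Bcat reads). In the other direction 0 members were past 2-fold, against 5.42% of entries. The floor in Bcat is 6.71 normalized reads because that library is shallow. Here too the bounds are not lower confidence limits. The lower 95% counting limit was 9.98-fold for Foxd1, 8.14 for Foxc1, 4.18 for Foxd2, 3.26 for Foxd3 and 2.29 for Foxc2.

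Foxd1 had 186 reads in Bcat_RingKO (normalized 83.2) and none in Bcat, at least 12.4-fold higher. Foxc1 had 152 (normalized 68.0) and none, at least 10.1-fold. Foxd2 had 79 (35.3) and none, at least 5.27-fold. In each of these genes the Bcat_RingKO library was high and Bcat was at the floor. Foxd3 had 62 reads (27.7) in Bcat_RingKO and none in Bcat, at least 4.13-fold, and Foxc2 had 44 (19.7) and none, at least 2.93-fold. Foxe1 had 10 reads (4.47 normalized) in Bcat_RingKO and none in Bcat, where the floor is higher than its level, so no fold is given.

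The Foxa genes were present in both libraries of the pair. Foxa2 had 360 reads in Bcat_RingKO (normalized 161) and 33 in Bcat (73.8), a ratio of 2.18 (95% counting interval 1.53 to 3.22). Foxa1 had 550 (246) in Bcat_RingKO and 74 (165) in Bcat, a ratio of 1.49 (1.16 to 1.92). Foxa3 had 468 (209) in Bcat_RingKO and 88 (197) in Bcat, a ratio of 1.06 (0.845 to 1.35), an interval that holds 1. Foxa2 and Foxa1 were higher in Bcat_RingKO beyond counting error. Over 9241 entries with at least 50 reads the median ratio was 1.29, and TMM scaling sets Bcat_RingKO at 5.81 times Bcat where the authors set 5. Under TMM the ratios were 1.88 for Foxa2, 1.28 for Foxa1 and 0.916 for Foxa3, so Foxa2 was no longer past 2-fold and Foxa3 changed direction. Summed normalized reads of the 6 Foxc, Foxd and Foxe genes were 238 in Bcat_RingKO and 0 in Bcat (7.84% and 0% of all forkhead symbols), and those of the Foxa genes were 616 in Bcat_RingKO and 436 in Bcat (20.3% and 19.2%).

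Among 25 other forkhead genes 3 rose and 1 fell, against 3.14% and 1.76% of all entries. Their median deposited log2 fold change was 0.16, and 7 reached an unadjusted p under 0.05 in either direction. In 8 of them both RingKO libraries lay above both WT libraries, as in 18% of all entries. Foxl2, a factor of the ovary and eyelid, had 54 and 69 reads in RingKO and none in WT, at least 87.4-fold higher (authors' adjusted p = 6.86e-20). Foxf2, a mesenchymal factor, had 19 and 30 reads in RingKO and none in WT, at least 34.8-fold higher (authors' adjusted p = 3.12e-07). Foxo6, an insulin-regulated FoxO factor found mainly in brain, had 70 and 83 reads in RingKO and 53 and 39 in WT, a log2 fold change of 2.01 ± 0.25 (authors' adjusted p = 0.00014). Foxm1, a regulator of mitotic genes, fell, with 267 and 264 reads in RingKO against 1061 and 982 in WT (log2 fold change -0.67 ± 0.13, authors' adjusted p = 0.0041). With a WT library left out, which leaves 1, Foxm1 was not called by edgeR. Its log2 fold change in these fits was -0.682 without library A and -0.676 without library B.

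Some relatives of the members had few reads in RingKO and WT. Foxf1 had 7 and 8 reads in RingKO and none in WT (authors' adjusted p = 0.0656), with 36 reads in Bcat_RingKO and none in Bcat. Foxl1, a marker of subepithelial mesenchyme, had 3 and 1 reads in RingKO and 2 and 2 in WT. In the Bcat pair 6 of 24 other forkhead genes were past 2-fold toward higher values (17% of all entries) and 0 toward lower ones (5.42%). Among them Foxl2 had 84 reads in Bcat_RingKO and none in Bcat, Foxf2 had 33 and none, and Foxo6 had 120 and 4.

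**Figure D3:**
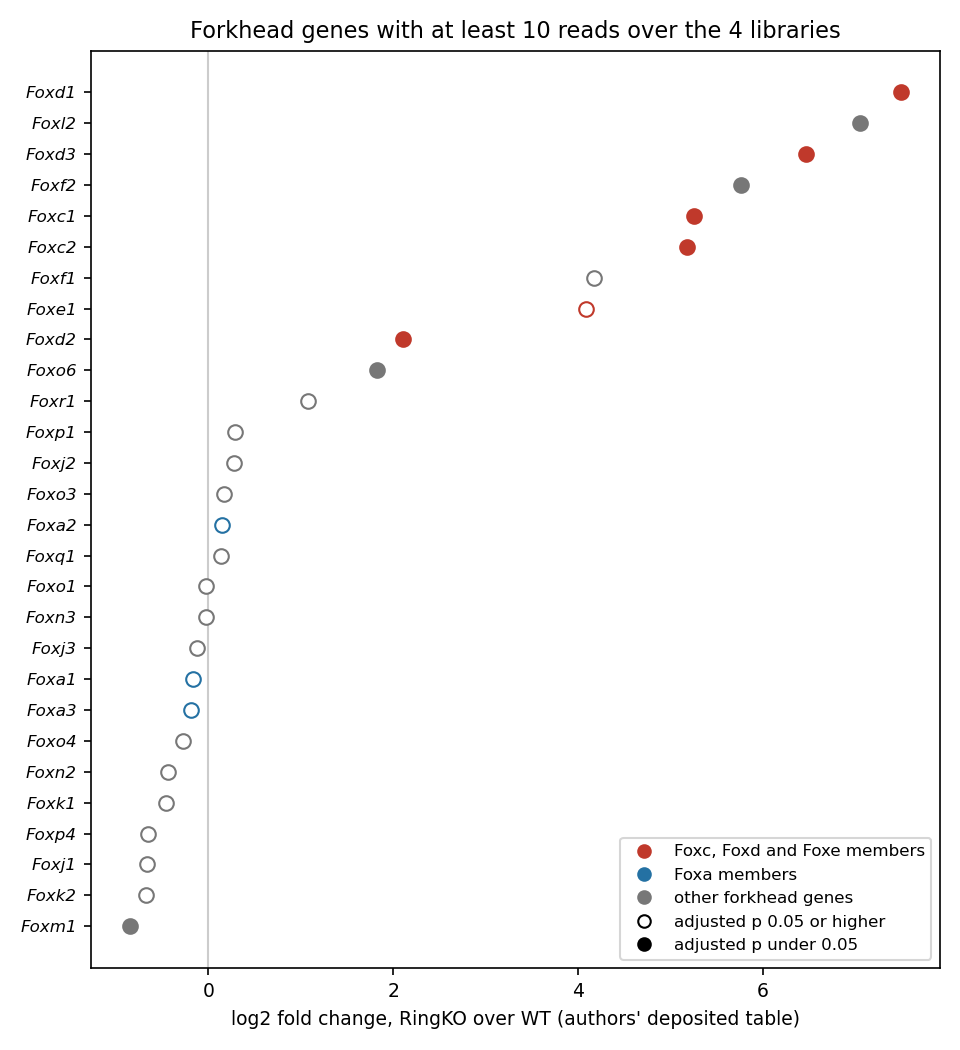
Deposited log2 fold change of RingKO over WT (x axis) for the 28 forkhead genes with at least 10 reads over the 4 libraries (y axis), with filled points for called genes and open points for the rest. The members that rose lie at 2.10 or above, Foxl2 and Foxf2 lie among them, and the Foxa genes lie between -0.19 and 0.14.

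Other forkhead genes lie close to Foxc1, Foxc2 and Foxd2, and the genes around each member were examined from gene order: 3 annotated genes in the table on each side, 54 in all. Of these 3 rose and 1 fell, against 3.14% and 1.76% of all entries, with a median deposited log2 fold change of -0.12. Foxf2, next to Foxc1, was 1 of those that rose. Foxd2os, a long non-coding RNA beside Foxd2, had 31 and 46 reads in RingKO and 13 and 15 in WT, a log2 fold change of 2.72 ± 0.38 (authors' adjusted p = 0.000336), and 101 reads in Bcat_RingKO against 1 in Bcat. It rose together with Foxd2, but whether strand was used in counting is not given, so reads from any overlap of the pair cannot be told apart. Mypop, a Myb-related repressor gene near Foxa3, had 40 and 44 reads in RingKO and 17 and 14 in WT (2.70 ± 0.32, authors' adjusted p = 0.00014), while Foxa3 did not pass. Gmds, a fucose synthesis gene on the other side of Foxc1, fell, with 950 and 938 reads in RingKO against 3154 and 3185 in WT (-0.48 ± 0.14, authors' adjusted p = 0.0192), and by edgeR's quasi-likelihood test it was not called (Benjamini-Hochberg adjusted p = 0.0656).

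Other genes in these stretches did not pass. Mthfsd, a gene of folate metabolism that lies between Foxf1 and Foxc2, had 12 and 8 reads in RingKO and 21 and 19 in WT. The genes that border Foxd1, Btf3 (11 and 13 reads in RingKO, 55 and 43 in WT) and Tmem174 (1 and 1 in RingKO, 7 and 5 in WT), were not called. Beside Foxd3, Atg4c (3 and 0 reads in RingKO, 17 and 12 in WT) and Alg6 (82 and 43 in RingKO, 208 and 231 in WT) were not called either. Mthfsd, Btf3, Tmem174, Atg4c and Alg6 were chosen by position after their values had been seen.

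**Figure D4:**
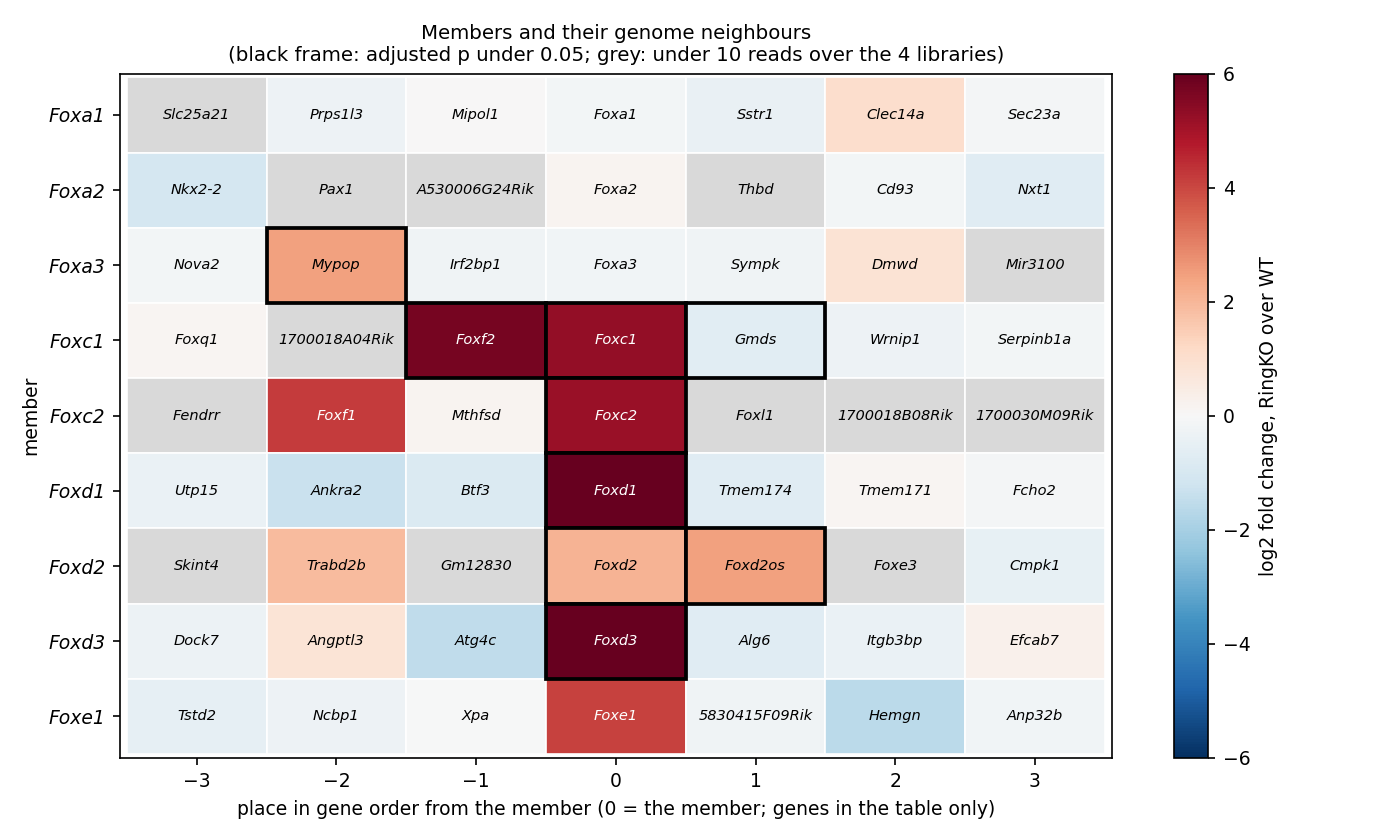
Deposited log2 fold change of RingKO over WT (color, saturated at the ends of its scale) for each member and the 3 annotated genes on each side (x axis, place in gene order), 1 row per member. Black frames mark called genes and grey marks genes under 10 reads over the 4 libraries. Called neighbours are Foxd2os and Foxf2 beside members that rose, Mypop near Foxa3, and Gmds, which fell.

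The endoderm transcription factors to which the Foxa genes belong gave a mixed picture. Of 20 such factors 2 rose and 4 fell (median deposited log2 fold change -0.35), against 3.14% and 1.76% of all entries. Sox17, an early endoderm and vascular factor, had 33 and 16 reads in RingKO and none in WT, at least 34.8-fold higher (authors' adjusted p = 0.00123), and 438 reads in Bcat_RingKO against none in Bcat, at least 29.2-fold higher. Hhex, a foregut and liver factor, had 44 and 33 reads in RingKO and 11 and 21 in WT (log2 fold change 2.52 ± 0.40, authors' adjusted p = 0.000753). Isx, an intestinal homeobox factor that limits vitamin A absorption, fell (-1.12 ± 0.16, authors' adjusted p = 2.70e-06), as did the nuclear receptor Hnf4g (-0.84 ± 0.15, authors' adjusted p = 0.0051). With a WT library left out, which leaves 1, Hnf4g was not called by edgeR. Its log2 fold change in these fits was -0.83 without library A and -0.87 without library B.

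Enteroendocrine genes of the secretory lineages in which Foxa1 and Foxa2 are known to act fell in part, while the Foxa genes did not pass. Of 19 genes listed for these lineages, 8 fell and 0 rose in the authors' table (median -1.06), against 1.76% and 3.14% of all entries. The 8 were Chgb, Gcg, Insm1, Isl1, Neurod1, Neurog3, Pyy and Sst, all genes of enteroendocrine cells. In either direction 11 of the 19 had an unadjusted p under 0.05, and edgeR called 0 higher and DESeq2 called 2 higher. The hormone gene Gcg had 1 and 15 reads in RingKO and 415 and 425 in WT (-4.43 ± 0.49), which became -3.48 without RingKO library A and -7.39 without RingKO library B. Sst (-3.13 ± 0.28), the endocrine progenitor factor Neurog3 (-3.23 ± 0.28) and Insm1 (-2.13 ± 0.26), a factor of endocrine differentiation, fell as well.

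Factors of the tissues where the Foxc and Foxd genes normally act rose in part. Of 10 neural crest factors measured, 4 rose and 0 fell in the authors' table (median 3.50), against 3.14% and 1.76% of all entries. In either direction 5 of the 10 had an unadjusted p under 0.05, and none was called lower by edgeR or DESeq2. Zic1, a neural plate border factor, had 59 and 75 reads in RingKO and 2 and 3 in WT (log2 fold change 5.92 ± 0.42, authors' adjusted p = 6.22e-18). Msx1, a homeobox factor of craniofacial tissue, had 150 and 70 reads in RingKO and 6 and 5 in WT (5.54 ± 0.46, authors' adjusted p = 0.00265), and its log2 fold change was 4.95 without RingKO library A. Twist1 (15 and 19 reads in RingKO, 0 and 2 in WT) and Msx2 (14 and 10 in RingKO, 0 and 1 in WT) also rose. With WT library A left out, which leaves 1, edgeR called neither, and the log2 fold changes were 4.17 for Twist1 and 4.53 for Msx2. Without WT library B no WT reads of either gene remain, and Msx2 was not called.

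Of 14 mesoderm factors measured, 5 rose and 0 fell (median 2.09), against 3.14% and 1.76% of all entries. An unadjusted p under 0.05 was reached by 7, and none was called lower by edgeR or DESeq2. Tbx15, a limb and skeletal factor, had 48 and 46 reads in RingKO and 0 and 2 in WT, a ratio of 100 (95% counting interval 27 to 839; authors' adjusted p = 1.32e-13). Six2, a kidney progenitor factor, had 32 and 18 in RingKO and 2 and 3 in WT. Lmx1b, a limb factor, had 19 and 21 reads in RingKO and 2 and 5 in WT. With WT library A left out, which leaves 1, edgeR did not call Lmx1b and gave a log2 fold change of 3.16.

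The thyroid and foregut list, to which Foxe1 is related, had 7 measured genes, of which 2 rose and 1 fell (median 0.32). Of all entries 3.14% rose and 1.76% fell. Slc5a5, the sodium iodide symporter, had 32 and 57 reads in RingKO and 12 and 14 in WT (3.04 ± 0.42, authors' adjusted p = 0.0177). Hhex, given above, was the other that rose. Duox2, an oxidase of the thyroid and gut surface, fell in the authors' table (adjusted p = 0.0366), but edgeR's quasi-likelihood test gave -0.76 ± 0.23 with a Benjamini-Hochberg adjusted p of 0.0740.

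Because Foxc, Foxd, Foxf and Foxl genes are expressed in mesenchyme, vessels and neural crest derivatives, markers of such cells were read in the same libraries. Of 9 mesenchymal markers 0 passed the authors' test, 0 reached an unadjusted p under 0.05, and 0 were called by edgeR or by DESeq2. Their summed normalized reads were 39.8 and 27.3 in RingKO and 35.2 and 22.5 in WT, so the groups overlapped. The collagen gene Col1a1 was higher in both RingKO libraries, with 18.5 and 14.4 normalized reads in RingKO and 11.5 and 3.52 in WT (ratio 2.13, 95% counting interval 1.14 to 3.97), and did not pass (authors' adjusted p = 0.771). Des was also above WT in both RingKO libraries, with 1 and 2 reads in RingKO and 1 and 1 in WT, and the libraries of the other 7 genes overlapped between genotypes or were lower in RingKO. The fibroblast genes Dcn and Lum each had no reads in RingKO and 1 read in WT, and Pdgfra had 1 read in RingKO and none in WT. Endothelial markers (7 genes, 0 called by any of these tests) summed to 21.3 and 37.3 in RingKO and 28.1 and 40.2 in WT, with no Pecam1 reads in RingKO and 1 in WT. Markers of neurons and glia (5 genes, 0 called by any of them) summed to 34.1 and 38.8 in RingKO and 27.5 and 40.2 in WT. In the Bcat pair mesenchymal markers summed to 13.0 in Bcat_RingKO and 114 in Bcat. Immune markers (8 genes, 0 called by any of them) summed to 128 and 224 in RingKO and 97.8 and 93.0 in WT, and to 189 in Bcat_RingKO and 101 in Bcat. The part of any of these cell types in the results was not tested.

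Epithelial lineage markers moved beside the forkhead genes. The counts below stand against 3.14% of all entries that rose and 1.76% that fell. Paneth cell markers summed to 40301 and 50194 normalized reads in RingKO and 18053 and 12316 in WT, and 7 of 8 rose, among them Defa24 (1.90 ± 0.23), Itln1 (1.81 ± 0.24), Ang4 (2.60 ± 0.39) and Mmp7 (1.32 ± 0.20). Without WT library B, which leaves 1 WT library, edgeR did not call Mmp7 and gave a log2 fold change of 1.23. That of Ang4 was 3.28 without WT library A. In the Bcat pair the same sum was 2589 in Bcat_RingKO and 9400 in Bcat. Stem cell markers summed to 29496 and 14838 in RingKO and 36807 and 42888 in WT, and 2 of 10 fell (Ascl2 at -1.01 ± 0.16 and Cdca7 at -0.99 ± 0.23). With 1 WT library left, edgeR did not call Ascl2 without library A (log2 fold change -0.87), nor Cdca7 without A (-1.05) or without B (-0.95). Enteroendocrine markers summed to 3237 and 3577 in RingKO and 6589 and 7810 in WT, and of 8 of them 5 fell, among them Gip (-2.84 ± 0.18), Gcg and Sst, and 1 rose, Sct (2.11 ± 0.20). Of 8 goblet markers 1 rose (Spink4, 1.65 ± 0.20) and 1 fell (Retnlb, -2.16 ± 0.24), and general epithelial markers (8 genes, 0 called by the authors, edgeR or DESeq2, 2 at an unadjusted p under 0.05) summed to 40280 and 44675 in RingKO and 41628 and 44008 in WT. The part of these lineage shifts in the forkhead results was not tested.

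Profiles over the 6 libraries were compared as a description, for the 7 members with at least 50 reads in a library and among 9500 entries. The measure was the Euclidean distance of log2(normalized reads + 1), each table centred on its own mean, so a small value means a like profile. Among the nearest to Foxd1 were the homeobox genes Hoxd9 (distance 0.265) and En2 (0.393), both without WT reads. Nearest to Foxd3 were Dmrt1 (0.390), Tfap2e (0.461) and Sall3 (0.570), and nearest to Foxc1 were Hoxd3 (0.835), Elfn1 (1.08) and the non-coding Foxl2os (1.18). Foxd2 was nearest to Myh7b (0.431), Plekhh2 (0.445) and Prex1 (0.504), all of which, like Foxd2, had reads in WT. Each of these nearest genes rose in the authors' table, a contrast that the distance itself includes.

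The Foxa genes each lay closest to widely expressed genes that did not pass the test. Foxa1 was nearest to Dnajc3 (distance 0.0583), Lmbrd2 (0.0692) and Zswim1 (0.0770), and Foxa3 to Pptc7 (0.0609), Rabac1 (0.0755) and Snhg3 (0.0963). Foxa2 was nearest to Gusb (0.128), Hunk (0.128) and Elp6 (0.141), with the higher RingKO library A that Foxa2 also shows. The Foxa genes were not close neighbours of each other: Foxa1 and Foxa3 were 0.483 apart, Foxa1 and Foxa2 0.629, and Foxa2 and Foxa3 1.00. Foxa1 and Foxd1 were 8.19 apart.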

How the data were processed

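RNA-seq libraries came from Lgr5-GFP+ crypt cells sorted from the mouse small intestine, per the labels' protocols. TopHat, DESeq and mm9 are named, without versions, in the submitters' processing notes. How reads were counted (annotation, strand) is not given in the sources used here. The authors deposited normalized coverage (signal) per RefSeq entry, as group means for RingKO and WT and per library for the Bcat pair, with the fold (ratio) and its log2 value. They also deposited p-values and adjusted p-values for RingKO against WT. The authors scaled each table on its own, and levels are not compared between them.

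In the values, a deposited signal equals (reads + 1) over the size factor of the library. Whole reads were therefore recovered for each library, with 100% of values whole (within 0.001 of a read in the Bcat pair, and within the printed digits of the means). In WT 9 entries had several solutions. The recovery was tested on simulated means. Library totals ranged from 922153 to 6753789 reads, which limits precision most in Bcat. The main test is the authors' adjusted p under 0.05. Count tests on the recovered reads (edgeR 4.0.16 quasi-likelihood with TMM and a low-count filter, DESeq2 1.42.0, limma 3.58.1, in R 4.3.3) are alternatives. With all entries edgeR called 1107 higher and 330 lower, and DESeq2 872 and 240. Other scalings, no filter and leaving out each library were also tried. Leaving out a WT library leaves 1, and edgeR then called a smaller share of entries in each direction than with all libraries. A call lost there says little about the gene itself. Ratios have exact conditional (Clopper-Pearson) 95% intervals.

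Members, 17 lists (194 genes) and tests were chosen with earlier results of these data known. Genes named are the members, Ring1, Rnf2, Ctnnb1, Lgr5, up to 4 called genes of each list by smallest adjusted p, called forkhead genes and neighbours, and the 3 nearest profiles. Other genes were chosen after their values were seen, among them Foxf1 and Foxl1 and the markers named at 0. A few genes that the rule names are not reported here. Of the accessions 98.7% matched the reference annotation, and promoter windows come from RefSeq (GRCm38.p6), a build other than that of the tables.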

Additional observations from a re-analysis of the deposited data

Results flagged for a closer look

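For 12 genes named above with at least 50 reads in each pair, the change went one way between RingKO and WT, where both RingKO libraries lay on the same side of both WT libraries, and the other way between the single Bcat_RingKO and Bcat libraries. The difference between the pairs was not tested in any of them, because the Bcat pair has 1 library per group. Of the members this concerned Foxa1, with a ratio of 1.49 in the Bcat pair and a deposited log2 fold change of -0.16 in RingKO that did not pass and was 0.018 by edgeR. Foxm1 had a ratio of 1.16 in the Bcat pair and -0.85 in RingKO, and Duox2 1.18 and -0.95. The same holds for Ctnnb1 (1.09 and -0.38), for Lmbrd2 (1.47 and -0.18) and Zswim1 (1.53 and -0.12), whose profiles are near that of Foxa1, and for Alg6 beside Foxd3 (1.17 and -0.71). Only the interval of Foxa1 excludes 1 among these genes that were higher in the Bcat pair. The Paneth genes went the other way, lower in the Bcat pair and higher in RingKO: Defa24 had a ratio of 0.245 and a log2 fold change of 1.72, Itln1 0.272 and 1.62, Mmp7 0.431 and 1.14, and Ang4 0.297 and 2.42. The goblet gene Spink4 had a ratio of 0.294 in the Bcat pair and a log2 fold change of 1.46 in RingKO. Against the median ratio of 1.29 in the Bcat pair, Ctnnb1, Foxm1, Duox2 and Alg6 do not stand above the other entries.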

How the results depend on the processing

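Of 82 alternative values of the members' log2 fold changes, 69 kept direction and side of the threshold, 3 passed it and 10 changed sign, all of these 10 in Foxa1 or Foxa3 near 0 and none past the threshold. Foxa1 was -0.16 as deposited, 0.018 by edgeR, 0.00114 by DESeq2, 0.026 with RLE and 0.050 with upper-quartile scaling, and -0.097 to 0.12 by edgeR with each library left out. Foxa3 was 0.00487 with RLE and 0.030 with upper-quartile scaling, and -0.26 to 0.22 with each library left out. The 3 that passed were Foxe1 by DESeq2 and by edgeR without a filter, and Foxa2 without RingKO library B (0.50), a fit with 1 RingKO library. With all libraries kept, members called higher numbered 5, or 6 by DESeq2 and by edgeR without a filter. These 2 tests called 6.88% and 5.77% of their entries higher. The Foxa median was -0.019 by edgeR without a filter, 0.00114 by DESeq2 and 0.018 by edgeR. From reads + 1 over the authors' size factors it was -0.17 to -0.039 with each library left out. The Foxc, Foxd and Foxe median was 7.16, 7.11 and 7.78 by these tools (edgeR tested 5 of the 6). Their values for genes without WT reads depend on how each tool handles zero counts. From reads + 1 over the authors' size factors, as in the deposited 5.21, the median was 4.95 to 5.71 with each library left out. Endoderm factors called lower numbered 2 by edgeR, secretory genes called higher 2 by DESeq2, thyroid genes called lower 0 by edgeR and by DESeq2, and neighbours called higher 6 by edgeR and 5 by DESeq2, and lower 0 by edgeR. In the Bcat pair 6 members were past 2-fold toward higher values (17% of all entries), and 5 under TMM scaling (13.2%). The causes of these differences were not tested. The planned lowest-mean row could not be used, since each member has 1 row. No paired analysis was possible because the deposited columns are group means and the recovered libraries A and B carry no replicate number.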
